A study of Homo sapiens with 8 samples.

Results

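The regions described here are the open chromatin regions of U-937 cells on which the interaction of ATRA and Corin could be computed, because all 4 treatment groups had a peak there. U-937 is a human acute myeloid leukaemia line with monocytic features. ATAC-seq inserts sequencing adapters into accessible DNA, so that stacked fragments mark open chromatin. Cells received vehicle (DMSO, labelled Ctrl), all-trans retinoic acid at 0.1 µM (labelled ATRA), Corin at 0.1 µM (labelled CORIN), or both at 0.1 µM each (labelled ATRA_CORIN, the combination), for 24 h. The 8 samples formed 4 groups of 2, and the 2 samples of a group had been combined into 1 peak list. No value below therefore carries a spread between replicates, and no difference was tested.

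Overlapping peaks of the 4 lists were merged into 161291 union regions. The members are the 66303 (41.1%) that every list called, while single lists called between 93253 (combination) and 113788 (Ctrl). In each list a member was given the highest fold of its peaks over local background, and these folds were ranked among the members from 0 to 100. The interaction is the effect of Corin on top of ATRA (ATRA_CORIN minus ATRA) less the effect of Corin alone (CORIN minus Ctrl), in percentile points of rank. A member at 10 points or higher is called more than additive, at -10 or lower less than additive, and in between additive. A positive interaction does not mean opening, since it also arises where compounds that each lowered a region lowered it together by less than the sum of their effects. In bulk cells, fewer cells with an open region and less opening per cell cannot be told apart.

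ATRA is the ligand of the retinoic acid receptors, which sit on DNA with RXR partners, hold co-repressors when unliganded and exchange them for co-activators on binding the ligand. It drives maturation of many myeloid leukaemia cells. Corin is a bifunctional inhibitor of the CoREST co-repressor, which joins the histone demethylase LSD1 (KDM1A) to the histone deacetylases HDAC1 and HDAC2 through RCOR scaffolds, and which the repressor GFI1 recruits in myeloid cells. PU.1 and C/EBP factors set up the enhancers of monocytes and granulocytes, and AP-1 dimers of FOS and JUN proteins bind many enhancers that respond to signals.

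Windows of 200 bp at the summits of 8 named regions show the elements on which the description turns. They hold an AP-1 (TGACTCA or TGAGTCA) or PU.1 match (GAGGAAGT) and are read 5′ to 3′ from hg38 on the plus strand. Capitals mark the match on either strand, and each name is that of the nearest coding gene.
MLXIPL region, more than additive, chr7:73636402-73636601: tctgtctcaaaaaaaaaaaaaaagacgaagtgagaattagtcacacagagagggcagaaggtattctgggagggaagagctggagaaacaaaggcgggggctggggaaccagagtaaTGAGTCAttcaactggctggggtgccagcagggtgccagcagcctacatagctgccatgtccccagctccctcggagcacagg
AGFG1 region, more than additive, chr2:227466333-227466532: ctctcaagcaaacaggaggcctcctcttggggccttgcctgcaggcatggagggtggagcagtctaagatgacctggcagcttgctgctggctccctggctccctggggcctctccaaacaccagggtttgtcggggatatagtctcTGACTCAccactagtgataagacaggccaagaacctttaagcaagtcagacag
GOLM1 region, more than additive, chr9:86106924-86107123: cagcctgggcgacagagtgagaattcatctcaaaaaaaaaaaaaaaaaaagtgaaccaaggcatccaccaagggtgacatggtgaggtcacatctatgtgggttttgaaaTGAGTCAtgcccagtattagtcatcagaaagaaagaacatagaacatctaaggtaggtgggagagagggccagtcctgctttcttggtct
ATF7IP2 region, more than additive, chr16:10362404-10362603: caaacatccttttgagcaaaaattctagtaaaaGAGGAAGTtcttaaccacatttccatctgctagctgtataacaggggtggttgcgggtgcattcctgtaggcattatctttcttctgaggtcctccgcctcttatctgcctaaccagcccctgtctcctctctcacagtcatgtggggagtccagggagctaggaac
GPR78 region, less than additive, chr4:8537250-8537449: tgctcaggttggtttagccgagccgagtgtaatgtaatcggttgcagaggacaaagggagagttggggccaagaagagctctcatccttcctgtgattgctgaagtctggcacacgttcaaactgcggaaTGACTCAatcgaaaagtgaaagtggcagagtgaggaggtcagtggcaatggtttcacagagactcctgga
DCDC2 region, less than additive, chr6:24228747-24228946: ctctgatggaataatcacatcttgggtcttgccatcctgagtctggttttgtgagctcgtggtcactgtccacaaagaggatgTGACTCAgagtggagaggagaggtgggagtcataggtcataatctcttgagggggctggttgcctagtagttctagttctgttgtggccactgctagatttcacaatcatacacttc
ETS2 region, less than additive, chr21:38797577-38797776: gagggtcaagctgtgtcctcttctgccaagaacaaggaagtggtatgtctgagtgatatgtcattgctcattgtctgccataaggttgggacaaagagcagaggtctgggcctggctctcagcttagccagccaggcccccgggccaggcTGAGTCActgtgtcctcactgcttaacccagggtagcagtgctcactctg
ETV3L region, less than additive, chr1:157106550-157106749: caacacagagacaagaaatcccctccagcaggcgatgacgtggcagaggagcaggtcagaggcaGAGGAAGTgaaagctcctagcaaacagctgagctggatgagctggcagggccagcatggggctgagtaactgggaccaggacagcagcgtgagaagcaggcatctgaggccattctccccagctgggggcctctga
The AP-1 letters occur on both sides of the classification, in 3 of these windows that were more than additive and in 3 that were less. Only named regions with a match were printed, without promoters, windows touching exons and some chromosomes. These counts are therefore no measure of frequency, and AP-1 was in 12.7% of all windows outside promoters.

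The starts of 8 of 8 genes that mark U-937 and monocytic cells (SPI1, CD33, LYZ, CSF1R, ITGB2, CD4, FCER1G and TYROBP) lay within 1 kb of a member. For other cell types this was so for 1 of 5 T cell genes, 0 of 4 erythroid, 1 of 3 megakaryocyte, 2 of 4 epithelial and 2 of 3 fibroblast genes. Pileups, the fragments stacked at a summit, were recovered from the peak scores as whole numbers within 0.05 for at least 99.96% of the members of each list. Their medians were 234 (Ctrl), 269 (ATRA), 213 (CORIN) and 257 (combination), and the median local backgrounds were 25.1, 20.95, 23.97 and 25.6 in the same order. Between lists the Pearson r of the ranks ran from 0.650 (ATRA and CORIN) to 0.880 (CORIN and Ctrl), a description over 66303 regions.

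Additive regions were the largest class at this limit. Of the members, 36321 (54.8%) were additive, 15822 (23.9%) were more than additive and 14160 (21.4%) less than additive. The median interaction was 1.40 points and the middle 50% of the members ran from -7.95 to 9.56 points. The lower tail was the longer one. At the 1st percentile the interaction was -43.3 points and at the 99th it was 32.6, and 313 members reached -50 or lower against 39 that reached 50 or higher. The values next to the limit were 10.0018 inside and 9.99955 outside on the upper side, and -10.0011 and -9.99955 on the lower side, so the classes cut a continuous range.

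The effect of Corin on a region was mostly alike in direction without and with ATRA. Across the 66303 members CORIN minus Ctrl and ATRA_CORIN minus ATRA, which have no list in common but rank the same regions, had a Pearson r of 0.570. Where Corin alone raised a region by 30 points or more (1524 regions, median 36.6), Corin on top of ATRA had a median effect of 18.4 points, and 67.6% of these regions were again raised by at least 10 points. Where Corin alone lowered a region by 30 points or more (1921 regions, median -36.5), its median effect on top of ATRA was -31.2 points, and 85.3% were again lowered by at least 10 points. For ATRA the r of its effect without and with Corin was 0.619. The 4332 regions that ATRA alone raised by 30 points or more (median 40.2) had a median ATRA effect of 21.7 points in the presence of Corin, and the 2351 lowered as far (median -36.8) had one of -21.9. Bins cut on the first difference collect its extremes, so a smaller second difference is no measure of a lost effect. Cut the other way round, the 1764 regions with ATRA_CORIN minus ATRA of 30 or higher (median 35.0011) had a median effect of Corin alone of 17.2 points.

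**Figure D1:**
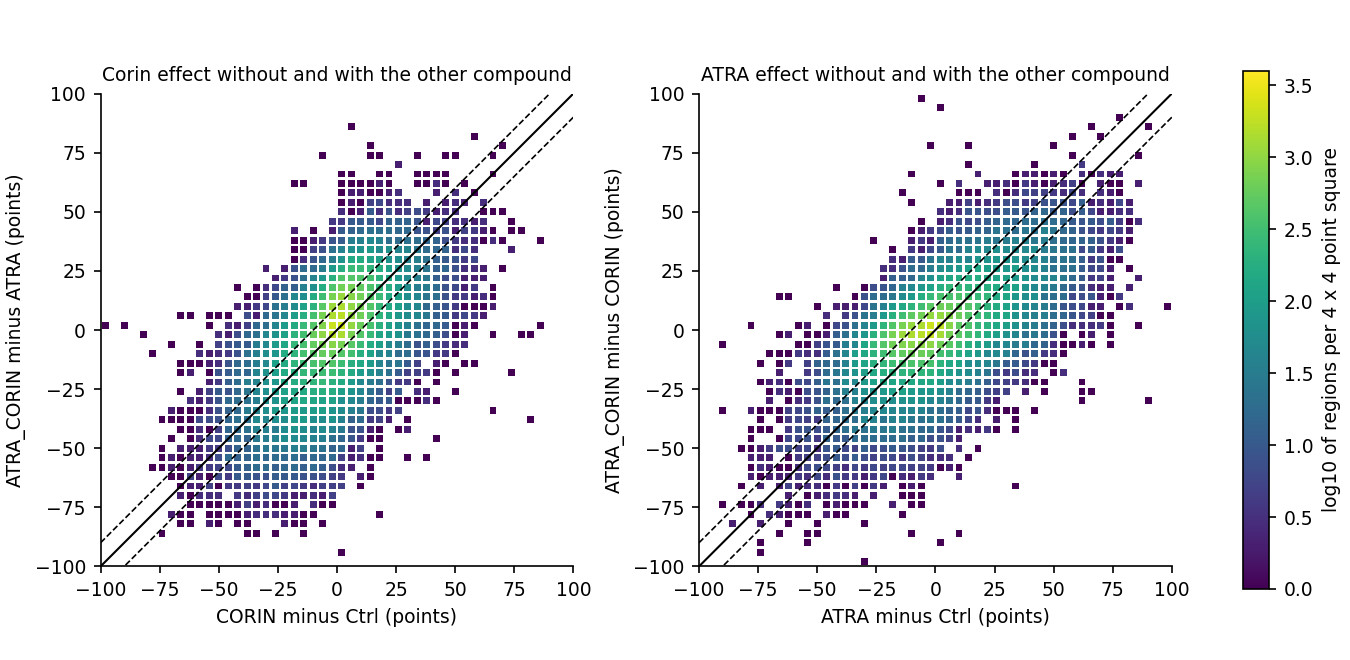
Each square gives the number of regions (colour, log10) at one pair of differences in percentile points; x, a compound's effect without the other, y, its effect with the other; left, Corin, right, ATRA. The solid line is additivity and the dashed lines lie 10 points from it; the clouds follow the solid line with r of 0.570 and 0.619 over 66303 regions.

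Additive regions were of 2 kinds. In 17584 of them (48.4%) neither compound alone moved the region by 10 points, and in 18737 (51.6%) at least 1 did. Among the latter, frequent courses were a rise with ATRA alone and with the combination (2482 regions), a rise with Corin and with the combination (2204), a fall with ATRA and with the combination (2044) and a fall with Corin and with the combination (1780). Where both compounds alone moved a region the same way, the combination usually stopped short of the sum. Both raised 3049 regions, by medians of 20.8 (ATRA) and 17.04 points (Corin), and the combination raised them by 23.3, so that 2270 (74.5%) were less than additive and 737 (24.2%) additive. Both lowered 3081 regions, with medians of -19.3 and -18.2 points and -25.5 for the combination, so that 2103 (68.3%) were more than additive and 856 (27.8%) additive. The Ctrl rank enters both single effects and, with the opposite sign, the interaction. Ranks are also bounded, so a sum that passes the lowest or highest rank cannot be reached. Part of this is therefore built into the arithmetic and the scale, and how large a part was not tested. The 4364 regions raised by ATRA and lowered by Corin stood at a median of -1.79 points with the combination, and 42.6% of them were additive, 42.3% less and 15.1% more than additive. The 3737 with the reverse course stood at 1.83, and 49.8% were additive, 29.9% more and 20.3% less than additive.

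The additive regions with the largest joint change were chosen after their values were seen, among those also additive by ranks of −log10 p and by ranks within GC classes. The pools were 429 regions raised by both compounds and 430 lowered by both. A region at chr5:56026879-56027472, 32121 bp from the start of IL6ST, the signal-transducing subunit of the interleukin 6 receptor family, ranked 9.91 with Ctrl, 44.3 with ATRA, 50.9 with CORIN and 81.000 with the combination. The single effects add up to 75.4 points and the combination reached 71.1. An intergenic region 40414 bp from RNF187 (chr1:228527253-228528291) ranked 9.31, 58.8, 27.7 and 84.1 in the same order, with a sum of 67.8 and a joint rise of 74.8 points. In an exon within the DCLRE1C gene, which encodes the Artemis nuclease of end joining, the ranks were 9.91, 48.3, 29.5 and 75.9. On the falling side, a region 22128 bp from ATP5MC3 (chr2:175203688-175204061), a gene for a subunit of the mitochondrial ATP synthase, ranked 85.5, 58.3, 31.98 and 8.57, a joint change of -76.98 points against a sum of -80.8. Near TBCA, a tubulin-folding cofactor, the ranks were 83.04, 25.04, 62.3 and 7.06. In all 5 the combination lay outside the range of the other 3 lists. That was fixed by the choice, since both single effects were at least 10 points in the same direction and the interaction was under 10 in size.

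Among regions more than additive, the ATRA list was often the lone low one, at least 10 points below the 3 others in 6827 of 15822. CORIN was so in 1960. A low rank in either list raises the interaction, so this follows in part from the definition. The leading course, in 5567 (35.2%), was a fall with ATRA and no move of 10 points with Corin or the combination, and 60.4% of these were promoters, with a median GC content of 57.01%. Regions lowered by each compound and by the combination made up 1663 (10.5%). A rise with the combination where neither compound alone moved the region accounted for 1167 (7.38%). Less than additive regions were spread over more courses, led by a rise with ATRA that was missing with the combination (2485, 17.5%), a rise under all 3 treatments (1769, 12.5%) and a rise with ATRA and the combination (1484, 10.5%), followed by a rise with Corin that was missing with the combination (1365, 9.64%). The list that stood apart most often was ATRA, 10 points or more above the 3 others in 8268 members (12.5%) and as far below them in 9753 (14.7%). The combination stood above the 3 others in 2180 members (3.29%), 1390 of them more than additive, and below them in 3134 (4.73%), 2214 of them less than additive.

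Promoters and GC-rich regions were more often more than additive than less, and regions outside promoters somewhat more often less than additive. Most promoters, 10315, were additive. A start of any transcript lay within 1 kb in 37.01% of the regions more than additive, 28.4% of those additive and 12.7% of those less than additive, against 27.1% of all members. The nearest coding start was at a median of 13118, 14891 and 24988 bp, and the median GC content was 49.5%, 48.8% and 45.9% in the same order. Of the 17975 promoters 32.6% were more and 10.04% less than additive, and of introns, exons and intergenic regions between 18.97% and 20.8% were more and between 24.2% and 25.96% less. In the highest of 10 GC classes 36.9% were more and 7.36% less than additive, and in the lowest 21.04% and 29.3%. The promoter share also depended on strength. Among the upper of 3 equal parts by mean rank, promoters made up 54.3% of the regions more than additive, 41.03% of the additive and 13.9% of those less than additive, and in the lower part 14.7%, 20.1% and 12.4%.

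That contrast was smaller on other scales, and there promoters were more than additive less often than all members. With folds ranked within GC classes, 22.1% of the promoters were more and 12.5% less than additive, against 22.9% and 21.2% of all members. With −log10 p ranked in place of the fold the shares were 11.9% and 7.13%, against 15.4% and 15.7%. By the pileup they were 8.62% and 5.15%, against 12.5% and 13.2%. In the highest GC class the shares became 14.7% and 14.5% within GC classes, and 12.5% and 3.997% by −log10 p. The background recovered from each peak's fold and p moved with these classes. Relative to Ctrl the ATRA list had a median background ratio of 0.73 in regions less than additive, 0.86 in additive ones and 0.93 in those more than additive, while the combination had 1.08, 1.08 and 1.09. The pileup had ratios for ATRA of 1.25, 1.085 and 0.98 in the same order, and for the combination 0.98, 1.15 and 1.195. In the 10% of members with the lowest Ctrl background 23.2% were more and 34.8% less than additive, and in the 10% with the highest 34.7% and 3.82%. The part of the background in the promoter result was not tested further.

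**Figure D2:**
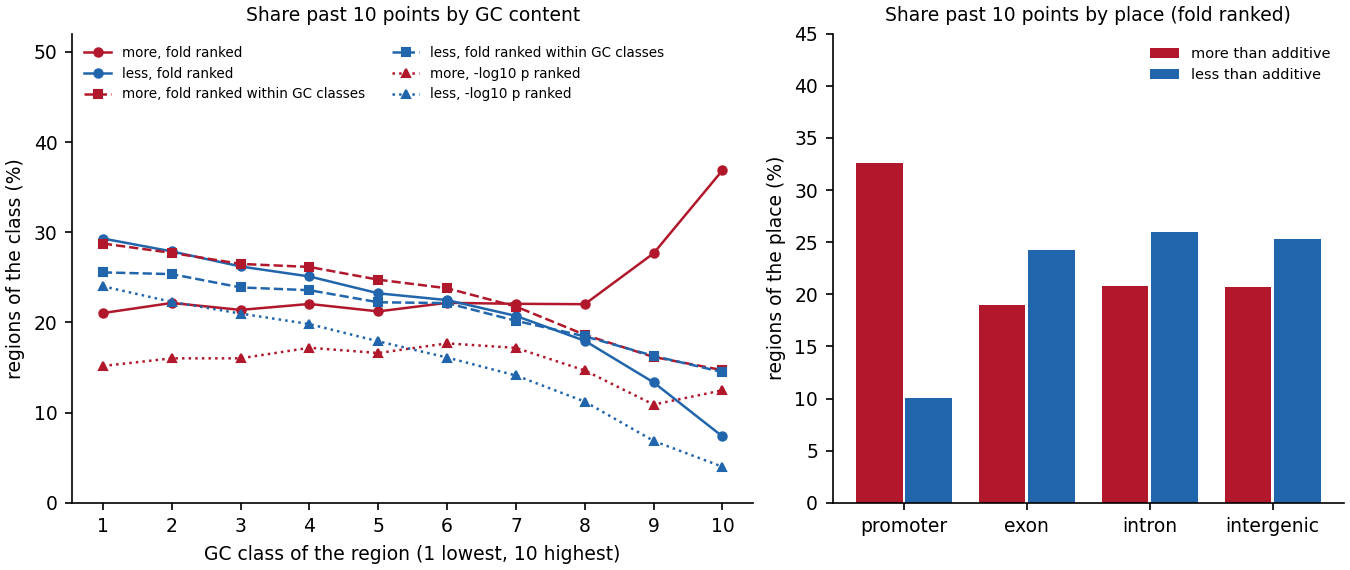
Left, share of regions (%) more than additive (red) and less than additive (blue) in 10 GC classes, by 3 ways of ranking (solid, fold; dashed, fold within GC classes; dotted, −log10 p); right, the same shares by place in the genome with the fold ranked. With the fold, the red line rises to 36.9% in class 10 and the blue line falls to 7.36%, and within GC classes the lines meet there at 14.7% and 14.5%.

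Named regions were the 10 highest and 10 lowest interactions among members that kept their class by −log10 p and within GC classes, had all 4 summits within 150 bp and lay within 100 kb of a coding start. The pools held 5322 regions on the upper and 5518 on the lower side. In 6 of the 20 the interaction rested on a weak peak of 1 list. The region 10440 bp from STK17A, a kinase linked to apoptosis, ranked 97.7 with Ctrl, 93.3 with ATRA, 0.009803 with CORIN and 97.1 with the combination. Its CORIN peak was 779 bp wide with a −log10 p of 2.32, beside 874, 1178 and 1003 in the Ctrl, ATRA and combination lists. Regions nearest to UNC13A, COX6C, NFIL3, ABCC12 and ZFP64 likewise had 1 list at a rank between 0.00226 and 1.47. Whether the chromatin or the peak call differed there was not tested. Members whose strongest peak had a −log10 q under 5 in any list numbered 1982 (2.99%), and they were 33 of the 352 with an interaction of 50 points or more in size. The rule was therefore applied again, as a choice made after the data were seen, to members with a −log10 q of 5 or more in every list, and those regions follow.

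On the upper side several regions lost rank with ATRA alone and held it with the combination. Near MLXIPL (chr7:73635937-73636822, intergenic, 11959 bp from the start), which encodes the carbohydrate-responsive factor ChREBP, the ranks were 95.2 with Ctrl, 5.65 with ATRA, 99.9 with CORIN and 92.03 with the combination. The pileups were 545, 50, 1062 and 650, and the interaction was 81.7 points. On the log2 scale of fold, after centring each list on its median, it was 2.09 (1.65 to 2.53), the range being the 95% interval from counting error only. ATRA was the lone low list. Near AGFG1 (chr2:227466110-227466941, 5719 bp), a nucleoporin-related gene, the ranks were 83.2, 16.1, 98.9 and 95.1 and the log2 interaction 1.44 (0.99 to 1.88). Near GOLM1 (chr9:86106677-86107375, 6875 bp), which encodes a Golgi membrane protein, they were 81.4, 13.99, 98.6 and 89.7 with 1.35 (0.86 to 1.84). The region 47135 bp from EFR3A had the same course, at 94.9, 33.3, 99.8 and 98.1. All 4 of these windows hold an AP-1 match.

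A second group lost rank with Corin alone and held it with the combination. The promoter of RAPGEF6 (chr5:131634688-131636092), an exchange factor for RAP GTPases, ranked 78.2, 69.9, 10.9 and 75.9, with pileups of 186, 290, 46 and 203 and a log2 interaction of 2.11 (1.58 to 2.65). An intron of GOLGB1, which encodes the Golgi protein giantin (chr3:121723763-121724578), ranked 83.4, 97.04, 13.7 and 90.3. In an intron of ATF7IP2 (chr16:10362066-10363095) the ranks were 90.4, 93.2, 35.3 and 95.9, and this window holds the PU.1 match printed above. Here CORIN was the lone low list. The remaining 3 differed. An intron of GNAI1, a subunit of inhibitory G proteins, ranked 70.1, 18.8, 29.5 and 38.1. The region 58168 bp from PMAIP1, which encodes the BH3-only protein NOXA, ranked 78.9, 6.47, 25.8 and 10.8, low under all 3 treatments. At GNAI1 and PMAIP1 the summed single effects would pass the lowest rank, 0, so the scale itself set a positive rank interaction. Near IFNW1, an interferon gene, the ranks were 92.7, 50.6, 75.5 and 92.5.

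On the lower side, each compound alone raised most of the regions and the combination raised them less or not at all. In an intron of GPT2 (chr16:46899273-46900076), which encodes a mitochondrial alanine transaminase, the ranks were 11.8 with Ctrl, 75.1 with ATRA, 51.9 with CORIN and 27.5 with the combination. The pileups were 80, 236, 148 and 83, and the interaction was -87.6 points, or -2.33 (-2.86 to -1.79) on the log2 scale. Near GPR78 (chr4:8536936-8537655), an orphan receptor gene, the ranks were 18.9, 79.6, 47.4 and 25.5, and the log2 interaction was -2.07 (-2.59 to -1.56). In an intron of DCDC2 (chr6:24228626-24229357), which encodes a doublecortin-domain protein, they were 12.7, 67.8, 61.5 and 42.4. Near ETS2 (chr21:38797353-38797864, 7506 bp), an ETS-family factor, they were 13.2, 67.3, 55.5 and 36.3 with a log2 interaction of -1.95 (-2.45 to -1.44). In all 4 the combination lay above Ctrl and below each compound alone, and 3 of their windows hold an AP-1 match. An intron of ETV3L (chr1:157106115-157107106), another ETS-family gene, ranked 36.3, 86.4, 65.7 and 46.1, and the promoter of KATNBL1 38.8, 85.6, 70.7 and 47.6. At GPT2, GPR78, DCDC2, ETS2, ETV3L and KATNBL1 the summed single effects would pass the highest rank. The scale itself therefore set a negative rank interaction there, as it set a positive one at GNAI1 and PMAIP1.

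A further 3 regions on the lower side followed different courses. A promoter region inside TGM4, a transglutaminase gene, lay 16482 bp from the nearest coding start, that of TGM4. It ranked 5.59, 78.4, 6.81 and 10.6, so that the rise with ATRA was missing in the presence of Corin. Near NTSR2 the ranks were 48.2, 81.9, 58.4 and 18.3, with the combination as the lowest list. In an exon within the RP1 gene they were 51.8, 62.3, 70.8 and 10.3, and the combination was again lowest.

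**Figure D3:**
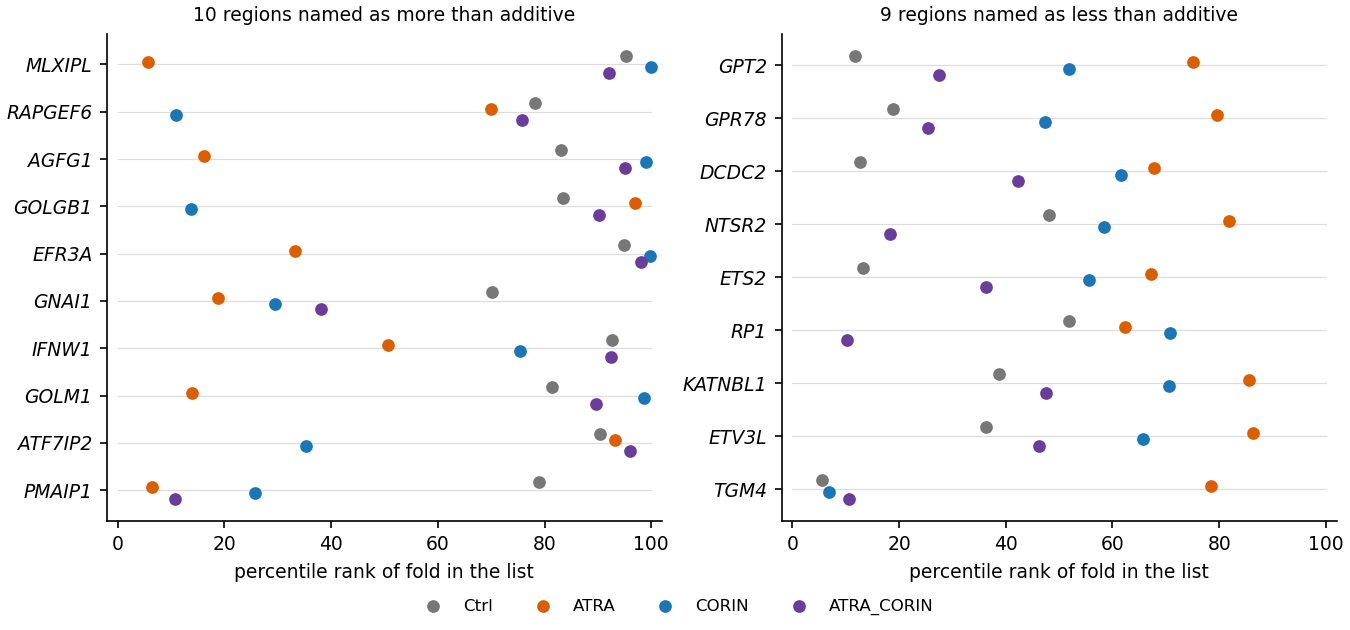
Percentile rank of fold (x axis, 0 to 100) in the 4 lists (coloured points) for the 10 highest (left) and 9 of the 10 lowest (right) interactions with a −log10 q of at least 5 in every list, 1 row per region by nearest coding gene. On the left ATRA or CORIN is often the lone low point, as at MLXIPL (5.65 with ATRA), and on the right ATRA is the highest point in 8 of 9 rows. Low ATRA or CORIN ranks raise the interaction and high ones lower it, so this follows in part from how the rows were chosen.

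Windows with an AP-1 match were less than additive more often than the others. Motifs were searched on both strands in the 200 bp windows of the 58156 members (87.7%) whose 4 summits agreed within 150 bp. Shares are given for the 42714 windows outside promoters, of which 21.2% were more and 25.1% less than additive. AP-1 was in 12.7% of these windows, in 10.5% of those more than additive, 11.6% of those additive and 17.001% of those less than additive. With ranks within GC classes the shares were 10.97%, 11.5% and 17.1%. Of the 5434 windows with AP-1, 33.5% were less and 17.5% more than additive, against 23.9% and 21.8% of the windows without. By −log10 p the shares less than additive were 27.2% with and 16.7% without AP-1, and by the pileup alone 23.98% and 13.98%. AP-1 windows had a median change of -6.05 points with ATRA alone, 7.37 with Corin alone and -0.728 with the combination, and the median interaction was -2.92. In the 15442 promoter windows AP-1 was in 3.74% of those more than additive and 15.6% of those less than additive.

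AP-1 was most frequent where ATRA lowered and Corin raised a region, and rare where the signs were reversed. Among windows lowered by ATRA and raised by Corin 45.5% held an AP-1 match, against 3.52% of those raised by ATRA and lowered by Corin, 17.1% of those raised by both and 4.998% of those lowered by both. In windows that Corin raised and ATRA did not move the share was 23.9%. PU.1 had the reverse order, in 17.4% of the windows raised by ATRA and lowered by Corin and in 3.97% of those with the opposite course. These shares concern single effects, which share the Ctrl list, and stand beside 12.7% (AP-1) and 8.88% (PU.1) of all windows outside promoters.

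C/EBP and IRF matches were also more frequent among regions less than additive. The C/EBP letters (TTGCACAA, TTGCATAA, TTGCGCAA or TTGCGTAA) were in 5.93% of the windows outside promoters, in 4.22%, 5.67% and 7.92% of those more than additive, additive and less than additive. Of the 2531 windows with them, 33.5% were less and 15.1% more than additive by fold, and 27.8% and 10.9% by −log10 p. Their median interaction was -3.32 points, and the median change was -1.75 with ATRA, 1.101 with Corin and -3.16 with the combination, below both single effects. The IRF letters (GAAANNGAAA), bound by interferon regulatory factors, were in 3.33% of the windows, and 30.8% of these 1421 windows were less than additive. PU.1 windows (3791) had a median change of 6.88 points with ATRA, -2.804 with Corin and 3.22 with the combination, and their median interaction was -0.336.

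Windows with the letters of GFI1, which recruits CoREST, and of the retinoid receptors had median interactions near 0. The 504 windows with the GFI1 letters (AATCACNGC or AATCAGNGC) rose by a median of 5.798 points with Corin alone and of 5.96 with Corin on top of ATRA, and had a median interaction of -0.841. The direct repeat with 5 bases between its parts that binds RAR and RXR (RAR DR5) was in 41 windows outside promoters (0.09599%). Their medians were 5.31 points with ATRA, 3.52 with Corin and 13.6 with the combination, and ATRA on top of Corin raised them by 8.78, while the median interaction was 0.339. The KLF/SP letters GGGCGG, common in CpG-rich promoters, were in 26.5% of all windows more than additive, 19.3% of the additive and 7.03% of those less than additive, against 18.5% of all. Within GC classes these shares were 16.9%, 22.2% and 10.3%, so the order of more than additive and additive turned with the ranking. A match is a run of letters and was not tested for binding.

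**Figure D4:**
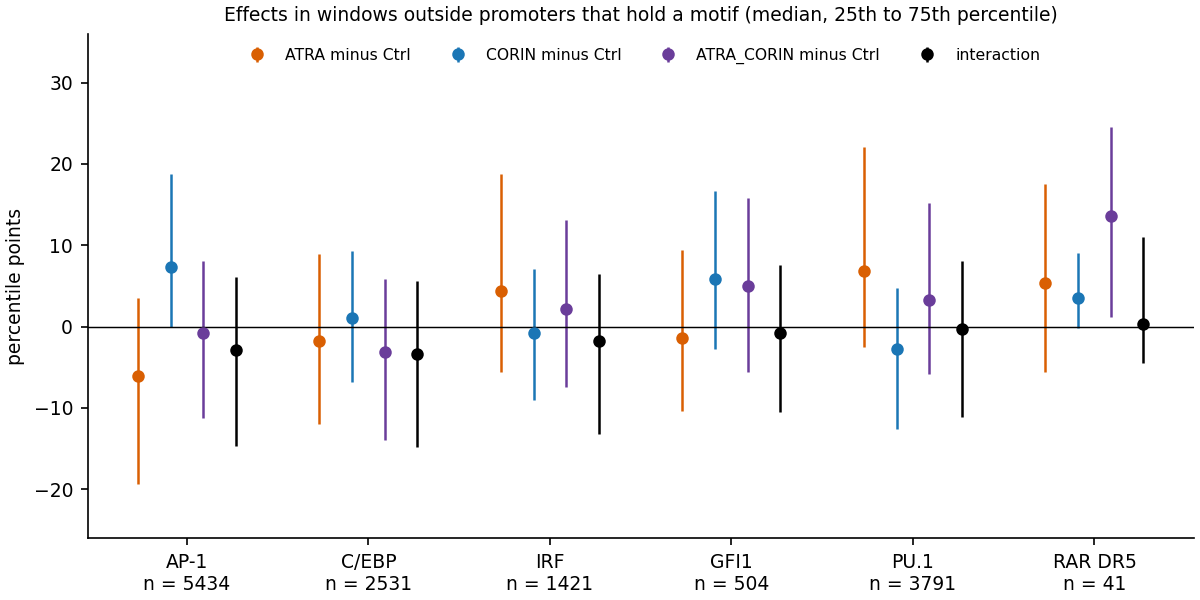
Median effect (percentile points; bars from the 25th to the 75th percentile of windows) of ATRA, Corin and the combination against Ctrl, and of the interaction, in windows outside promoters that hold each motif. AP-1 windows fell with ATRA (-6.05) and rose with Corin (7.37), PU.1 windows had the opposite signs (6.88 and -2.804), and the bars of every interaction cross 0.

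Genes were then described by lists, counting members within 10 kb of each gene body, beside 23.9% more and 21.4% less than additive and a median of 1.40 for all members. Near 22 of the 24 retinoid genes lay 99 members, of which 28 (28.3%) were more and 12 (12.1%) less than additive, with a median interaction of 2.44, and 39.4% of the 99 were promoters. By −log10 p the list had 15 regions more and 11 less than additive. The 2 regions of CYP26B1, which degrades retinoic acid, were both less than additive, at -20.8 and -27.2 points. They ranked 58.5, 75.8, 57.5 and 54.1 and 39.1, 62.4, 39.5 and 35.5, highest with ATRA alone, and neither was less than additive by −log10 p.

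DHRS3, a retinaldehyde reductase that ATRA is known to induce, had 3 of 6 regions more than additive by fold, 0 by −log10 p and, by the pileup, 3 less than additive. The region at its start (chr1:12617692-12619677) ranked 48.9 with Ctrl, 12.2 with ATRA, 43.3 with CORIN and 29.9 with the combination. The pileups there were 681, 1155, 654 and 1129 and the backgrounds 78.4, 225, 92.8 and 189.9, so that signal and background were both higher with ATRA and with the combination. At a second start (chr1:12595637-12596848) the pileups were 300, 1234, 434 and 1617, the backgrounds 26.7, 97.8, 33.1 and 120.2 and the ranks 63.996, 54.3, 76.5 and 74.5. The fold is taken over the local background and so does not show a rise that the whole locus shared. DHRS9, a retinol dehydrogenase, had 3 of 6 regions more and 1 less than additive by fold, 1 more and 2 less by −log10 p, and 0 more and 3 less by the pileup. HIC1, a transcriptional repressor, had 3 of 6 more and 0 less by fold, and 1 and 1 by −log10 p and by the pileup.

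Near 29 of the 30 genes of monocyte and granulocyte differentiation lay 118 members, 32 (27.1%) more and 15 (12.7%) less than additive, with a median of 2.78. By −log10 p these were 22 and 12. SPI1, which encodes PU.1, had 3 of 5 regions more than additive by fold and 0 by −log10 p. Its promoter region (chr11:47376327-47379081) ranked 46.2, 40.1, 53.6 and 61.8, and a region at chr11:47359215-47360419 ranked 73.1, 41.1, 75.1 and 74.6, low with ATRA only. CYBB, the catalytic subunit of the phagocyte NADPH oxidase, had 4 of 10 more and 1 less than additive, and by −log10 p 5 and 0. CSF1R, the receptor of macrophage colony-stimulating factor, had 3 more and 4 less than additive among 9. The region at its start (chr5:150086097-150086892) ranked 2.91 with Ctrl, 36.6 with ATRA, 0.437 with CORIN and 23.9 with the combination, higher in both lists with ATRA. By −log10 p the 9 regions of CSF1R were 2 more and 3 less than additive. The 2 regions of EGR1, an immediate-early factor of monocytic maturation, were both less than additive by fold and neither was by −log10 p.

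Genes of CoREST had equal counts on both sides by fold, close ones within GC classes, and unequal ones by −log10 p and the pileup. Of 100 members near the 18 genes of the complex and its partners, 19 were more and 19 less than additive, with a median of 3.24. Within GC classes 20 and 19 were so, by −log10 p 21 and 14, and by the pileup 18 and 9. All members had 15.4% and 15.7% by −log10 p and 12.5% and 13.2% by the pileup. RCOR1, the scaffold, had 4 of 7 more and 1 less than additive by fold, and 1 more and 2 less by −log10 p and by the pileup. Its interactions ran from -45.6 to 36.7 points. The highest was that of an intron region (chr14:102640809-102641745) at 46.2, 34.1, 28.1 and 52.7. GFI1 had 3 of 6 more than additive (2 by −log10 p), and its region at chr1:92475840-92476868 ranked 48.7, 21.3, 52.7 and 47.99, low with ATRA only. The region at the start of KDM1A was additive (97.04, 87.2, 98.3 and 92.9). A second region of KDM1A (chr1:23078880-23079687) ranked 52.5, 79.4, 13.9 and 10.8 and was less than additive at -30.01 by fold, and also by −log10 p, within GC classes and by the pileup. Among 52 members near 20 interferon-stimulated genes 10 were more and 12 less than additive by fold, and 6 and 6 by −log10 p. IFIT3 had 1 of 4 regions more and 2 less than additive by fold, and 1 and 0 by −log10 p. The start of IFIT3 (chr10:89327445-89328508) ranked 78.3, 57.3, 50.3 and 76.1, low with either compound alone and not with both. Its interaction was 46.8 points (23.8 by −log10 p). A region in an exon of RIGI (chr9:32483249-32484037), an RNA sensor, ranked 29.7, 91.7, 14.4 and 7.57, with an interaction of -68.9. Among 34 members near 11 of 16 neuronal genes silenced by REST, 7 were more and 9 less than additive by fold, and 4 and 8 by −log10 p.

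The genes of AP-1 factors had the largest share less than additive of the 9 lists. Of 53 members near 13 genes 17 (32.1%) were less and 8 (15.1%) more than additive, and the median was -2.798. FOS had 5 of 6 regions less than additive, FOSB 3 of 3 and JUND 3 of 4. The start of FOS (chr14:75278056-75280282) ranked 25.8 with Ctrl, 37.9 with ATRA, 27.8 with CORIN and 23.9 with the combination, and that of FOSB (chr19:45467514-45470594) 25.8, 56.5, 24.6 and 22.4. ATRA was the lone high list at each. The pileups at the FOS start were 1209, 1144, 1292 and 1680 and the backgrounds 211, 118, 256 and 323. At FOSB the pileups were 1422, 1556, 1387 and 1749 and the backgrounds 249, 119.5, 296 and 349.9. The background of the ATRA list was the lowest of the 4 at each of these 11 regions, and its pileup was the highest at 0 of them. Ranked by the pileup, 0 of the 53 members were less than additive and 5 were more, and by −log10 p 9 and 10. The housekeeping gene HSP90AB1, a chaperone, had the same course at its start, with ranks of 23.5, 55.9, 29.9 and 27.1, pileups of 2304, 1786, 2912 and 3173 and backgrounds of 423, 139, 550.1 and 569.

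**Figure D5:**
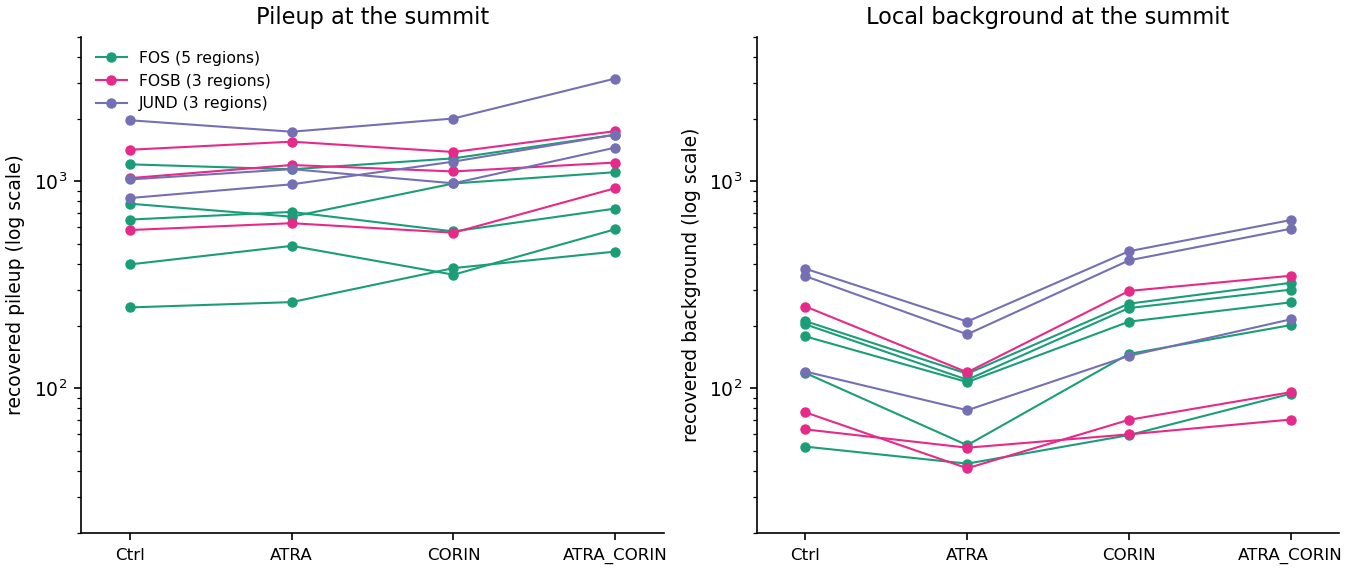
Pileup (left) and local background (right) at the summit, both recovered from the peak scores and on log axes, in the 4 lists for the 11 regions near FOS, FOSB and JUND that were less than additive; lines join the values of a region. At the FOS start the background with ATRA is 118 beside 211 with Ctrl, while the pileups are 1144 and 1209.

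Cell cycle, apoptosis and leukaemia genes gave examples on both sides. Of 94 members near 20 genes of cell cycle and apoptosis 24 (25.5%) were more and 15 (15.96%) less than additive by fold, and 12 and 9 by −log10 p. CDKN1B, which encodes the inhibitor p27, had 4 of 6 more than additive, 3 by −log10 p. A region at chr12:12705619-12706471 ranked 64.4, 31.8, 69.02 and 67.8 and had interactions of 31.3 by fold and 33.7 by −log10 p. The start of CDKN1B ranked 54.1, 26.5, 66.4 and 54.9. In both regions ATRA was the lone low list. BCL2L11, which encodes the BH3-only protein BIM, had 2 of 3 more than additive (1 by −log10 p), among them an intron region at chr2:111135384-111136473 (65.01, 35.1, 44.9 and 49.01). BCL2, the anti-apoptotic founder of its family, had 5 of 12 less and 3 more than additive by fold, and 3 less and 1 more by −log10 p. Its intron region at chr18:63141559-63142568 ranked 17.8, 53.8, 19.9 and 7.46, with an interaction of -48.5, while its start ranked 50.1, 28.3, 58.9 and 63.6, with one of 26.5. Of 208 members near 18 stem cell and leukaemia factors 49 (23.6%) were more and 42 (20.2%) less than additive by fold, and 34 and 35 by −log10 p. KIT, the stem cell factor receptor, had 4 of 6 more than additive, 3 by −log10 p, and RUNX1 had 13 more and 13 less among 54, and 6 and 11 by −log10 p. Of 63 members near 16 housekeeping genes 14 were more and 9 less than additive by fold, and 6 and 7 by −log10 p.

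Over whole loci, few genes leaned to 1 side. Of 3335 coding genes with at least 5 members nearest to their start and within 50 kb, 221 (6.63%) had a median interaction of 10 or higher and 180 (5.4%) of -10 or lower. The 8 highest medians were those of SLC38A1 (27.4), TAPT1 (25.6), PTGS1 (25.1), IL31RA (23.6), TANC2 (21.5), SIAH3 (20.5), TFEC (20.3) and RAP1B (20.2). TFEC, a macrophage factor of the MITF family, had 5 of 6 regions more than additive (4 by −log10 p), and its start ranked 51.3, 42.7, 38.01 and 52.6. PTGS1, the cyclooxygenase COX-1, had 4 of 6 more than additive, and 1 less than additive (chr9:122354573-122355662) that ranked 5.99, 79.3, 22.1 and 67.3. By −log10 p the regions of PTGS1 were 2 more and 1 less than additive. SLC38A1, a glutamine transporter, ranked 83.9, 54.7, 89.5 and 87.6 at its start. IL31RA, a cytokine receptor subunit, had 4 of 5 more than additive by fold, and 3 more and 1 less by −log10 p.

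The 8 lowest medians were those of AHR (-30.9), ITM2B (-28.6), CHD5 (-26.8), LRRC4 (-26.04), USP13 (-25.96), EPHA2 (-25.01), CDH3 (-23.7) and ECHDC1 (-22.5). AHR, the aryl hydrocarbon receptor, had 3 of 5 less than additive. Its region at chr7:17122818-17123795 ranked 39.9 with Ctrl, 94.1 with ATRA, 25.8 with CORIN and 45.9 with the combination, so that ATRA raised it without and, by less, with Corin. The start of AHR was additive, at 73.5, 57.7, 80.7 and 73.9. Near ITM2B, a membrane protein gene, the region at chr13:48210083-48210574 ranked 11.3, 2.47, 57.9 and 3.71, a rise with Corin that was missing in the presence of ATRA. The region at chr13:48186122-48186839 ranked 21.5, 59.5, 46.1 and 30.3, raised by each compound alone. CHD5, a chromatin remodeller, had 4 of 5 less than additive by fold. At the most extreme of them (-51.9) the interaction by −log10 p was -13.3. The others had -9.74, -3.11 and 5.43 by −log10 p, so none of them stayed less than additive. At the most extreme region the pileups were 382 with Ctrl, 235 with ATRA, 293 with CORIN and 214 with the combination. The backgrounds there were 74.1, 14.8, 53.9 and 40.035, so both pileup and background were lower with ATRA than with Ctrl. With few regions per gene, these medians rank loci and do not measure their stability.

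The precision behind each class could be given for counting only. On the log2 scale the counting error of an interaction had a median of 0.16 in regions more than additive, 0.18 in additive ones and 0.26 in those less than additive. The median log2 interactions were 0.42, 0.083 and -0.48 in the same order. The interval from counting error excluded exact additivity in 12015 (75.9%) of the regions more than additive. It did so in 7333 (51.8%) of those less than additive and also in 5333 (14.7%) of those called additive. In the rest of the regions less than additive, exact additivity on the log2 scale lay within counting error. The classes were cut on ranks of the same folds, so the shares of regions past counting error are no independent support for them. The errors count the pileups only and take the local background as known. Variation between cultures or libraries is not in these errors and intervals.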

How the data were processed

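Peak lists from 8 ATAC-seq samples in 4 groups of 2 were used, with groups taken from the labels. The authors combined both samples of a group into 1 deposited list, and a list was given to the group whose treatment its name states. The submitters' processing notes name cutadapt, Bowtie2, SAMtools, Picard and MACS2 and the build hg38, and versions and settings are not given in the sources used here. Column 7 of the deposited lists is a ratio, namely the fold over the local background. The deposited p and q values are on a −log10 scale. Both readings follow the narrowPeak layout of the deposited files. Fold and p depend on depth and on the background model, so they were compared as ranks within a list. No columns of per-sample values were left out (0).

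The members, gene lists and motifs were chosen with earlier results of these data known. Peaks on chromosomes 1 to 22, X and Y that overlapped by at least 1 bp were merged, and members were annotated with GENCODE release 44 (promoter, start within 1 kb). Background and pileup were solved from fold and p, taking the fold as (pileup + 1)/(background + 1) and p as a Poisson tail, and the read depth itself is unknown. With 1 list per group there is no test and no replicate error. The steps were tested on simulated data.

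The named regions were the 10 highest and 10 lowest interactions that kept their class by −log10 p and within 10 GC classes. The named genes were the 8 highest and 8 lowest medians among genes with at least 5 members, and up to 3 genes per list with the most members past 10 points in 1 direction. Other regions and genes of the lists, the additive examples and the repeat with a −log10 q of 5 were chosen after values were seen. Alternatives were other scores, scales, ranking populations, limits, merging and filters. Python 3.11.15, NumPy 2.4.6, pandas 2.3.3, SciPy 1.17.1 and pysam 0.24.0 were used. 1 named region and 1 marker list are not reported here.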

Additional observations from a re-analysis of the deposited data

How the results depend on the processing

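No paired analysis was possible because the 2 samples of each group were combined into 1 list, so replicate numbers could not be used and no replicate could be left out. Of 45 class counts under 15 alternatives, 32 stayed within 1.5 times the reported count. Additive regions were no longer a majority with the mean fold of a list's peaks (39.2%) and with normal scores of the ranks (39.1%). The other 13 were as follows. Ranking −log10 p gave 10204 regions more than additive. The centred log2 fold with a limit of log2 of 1.5 gave 4483 more, 5452 less and 56368 additive. A limit of 5 points gave 25335 more and 20311 additive, and a limit of 20 points gave 4396 more, 6363 less and 55544 additive. Among the upper 50% by mean rank 9351 were less than additive and 12295 additive, of 33152 regions. The recovered pileup, an alternative chosen after the data were seen, gave 8286 more and 8748 less than additive. Which regions were called moved further than the counts. Of the regions more than additive 47.6% stayed so by −log10 p and 83.6% within GC classes, and of those less than additive 61.0% and 89.5%, with 10 and 25 changing sides by −log10 p and 0 within GC classes. With the mean fold of a list's peaks, 1544 and 1337 changed sides. By the recovered pileup 33.9% and 48.4% stayed, with 54 and 141 changing sides. The 26 named regions kept their class under 8 alternatives, but they were chosen as extremes that keep it by −log10 p and within GC classes, so this says nothing about stability. Depth and the reporting floor limit the weakest peaks, and differences between cultures cannot be told apart from treatment effects with 1 list per group.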
